A study of Homo sapiens with 2 samples.

Results

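The immunoglobulin heavy chain locus (IGH) and the kappa (IGK) and lambda (IGL) light chain loci were examined in ATAC-seq peak lists of Z-138, an established line of mantle cell lymphoma, a cancer of mature B cells. ATAC-seq marks open chromatin by the insertion of sequencing adapters with a transposase, and a peak, called an accessible region below, is a stretch where insertions pile up. The 2 libraries, 1 per group, came from Z-138 cells with a control shRNA and from Z-138 cells with an shRNA that knocks down SMARCA4, a motor subunit of SWI/SNF complexes, which slide and evict nucleosomes. Both cultures received doxycycline, and neither label names a drug against the lymphoma, while peak names in both lists carry the term DMSO, a common solvent control. Regions were taken by position (hg19): IGH on chromosome 14 from 105.95 to 107.29 Mb, IGK on chromosome 2 from 89.1 to 90.3 Mb, and IGL on chromosome 22 from 22.35 to 23.3 Mb. This gave 115 of the 55124 control regions on chromosomes 1 to 22 and X, and 74 of the 41540 knockdown regions. IGH held 63 control and 47 knockdown regions, IGK 31 and 14, and IGL 21 and 13. With 1 library per group no test between the groups is possible, and whether any difference exceeds the spread between cultures cannot be judged. Peak lists hold no RNA or protein, so neither the knockdown nor the B cell identity of the line was checked. The number of reads per library is not in the lists, and its ratio between them was recovered from the peak values (1.42 times as many in the knockdown library).

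Antibody genes are assembled in developing B cells by V(D)J recombination, which joins 1 variable (V), in the heavy chain 1 diversity (D), and 1 joining (J) segment upstream of the constant (C) genes and deletes or inverts the DNA between them. Known enhancers lie between the joining segments and the first constant gene of IGH and IGK and beyond the constant genes of all these loci, and a V segment has its own promoter. In mantle cell lymphoma the IGH locus is typically joined to CCND1, the gene of cyclin D1, by a translocation. RefSeq (GRCh38.p14, used for names alone) lists 48 V segments, 27 D segments, 6 J segments and 9 C regions for IGH, 44 V, 5 J and 1 C for IGK, and 38 V, 7 J and 4 C for IGL. It also lists 79 IGHV, 41 IGKV and 36 IGLV pseudogenes. Reads from such near-copies may map to several places, and DNA that Z-138 deleted on an allele gives no reads from that allele.

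The DNA between the IGHM constant gene and the J segments shows in letters how repetitive these loci can be. RefSeq (GRCh38.p14, minus strand of chromosome 14) places 4 short hairpins there, written as RNA, and both shown here were picked because they hold the most copies of the 5-base repeats GAGCU and GGGCU, set in capitals.
MIR4537 (chr14:105859484-105859553): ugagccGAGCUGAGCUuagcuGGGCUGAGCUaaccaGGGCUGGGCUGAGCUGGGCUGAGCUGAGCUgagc
MIR4538 (chr14:105858165-105858242): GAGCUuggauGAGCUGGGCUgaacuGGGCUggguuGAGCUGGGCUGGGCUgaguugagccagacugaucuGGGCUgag
The repeats make up 50 of 70 bases in MIR4537 and 40 of 78 bases in MIR4538. Each of the 4 hairpins has at least 5 copies on the strand shown, and so do 4 of all 1562 hairpins in the table, or 0.256%, while 25% hold at least 1 copy. Both repeats were counted on the written strand, and they cannot overlap each other. A genome sequence or annotation of hg19 was not used here, so no accessible region was matched to these hairpins or to any segment, promoter or enhancer. Whether the spans also hold genes other than those of immunoglobulins was not checked either.

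Accessible regions were denser in IGH than over all chromosomes, and 50 of its 63 control regions lay in the variable part. The control list held 47.0 regions per Mb in IGH against 15.1 on the rest of chromosome 14, and the knockdown list 35.1 against 11.2. IGK held 25.8 control regions per Mb against 18.7 on the rest of chromosome 2, and 11.7 knockdown regions per Mb against 13.6. IGL held 22.1 and 13.7 per Mb against 10.6 and 8.45 on the rest of chromosome 22. Chromosome lengths were counted from the first base to the last region, unsequenced stretches included. This lowers the densities for the rest of chromosomes 14 and 22, with their unsequenced short arms. The spans of the loci were also counted in full. Whether they hold unsequenced stretches was not checked, and such stretches would lower their densities too. Over the 1000 kb beyond the constant end the control list held 46 regions per Mb at IGH, 16 at IGK and 27 at IGL, and the knockdown list 32, 12 and 24. The IGH flank was thus about as dense as the locus, and the IGL flank denser than the locus. Over all chromosomes the lists held 18.2 and 13.7 regions per Mb.

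Of the 115 control regions in the loci, 56 overlapped a knockdown region by at least 1 bp, or 48.7% (exact binomial 95% interval 39.3 to 58.2%), where 60.5% of all control regions did. Of the 74 knockdown regions, 56 overlapped a control region, or 75.7% (64.3 to 84.9%), where 79.4% of all knockdown regions did. These made 56 pairs with no region in more than 1 pair. The overlapped share was higher at higher deposited fold. This fold is the reads or fragments (here called reads) stacked at the summit over the expected background, with 1 added to both. Such a fold rises with depth, so folds of the 2 libraries are not on the same scale. Of control regions in the loci 18.9% were overlapped below a fold of 5, 42.5% from 5 to 7, 81.0% from 7 to 10 and 88.2% from 10 upward. Outside the loci the same classes had 27.3%, 54.6%, 79.2% and 94.7%, so the rise is one of the whole list. Each share was therefore set beside the share that regions of the same fold have in the whole list. By fold, 55.5% of these control regions would be overlapped, and the difference of -6.81 percentage points has an interval of -16.2 to 2.69. For knockdown regions the share by fold was 80.3%, a difference of -4.63 points (-16.0 to 4.6). Both intervals include 0, so over the loci as a whole no departure from regions of like fold was detectable at this number of regions.

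**Figure D1:**
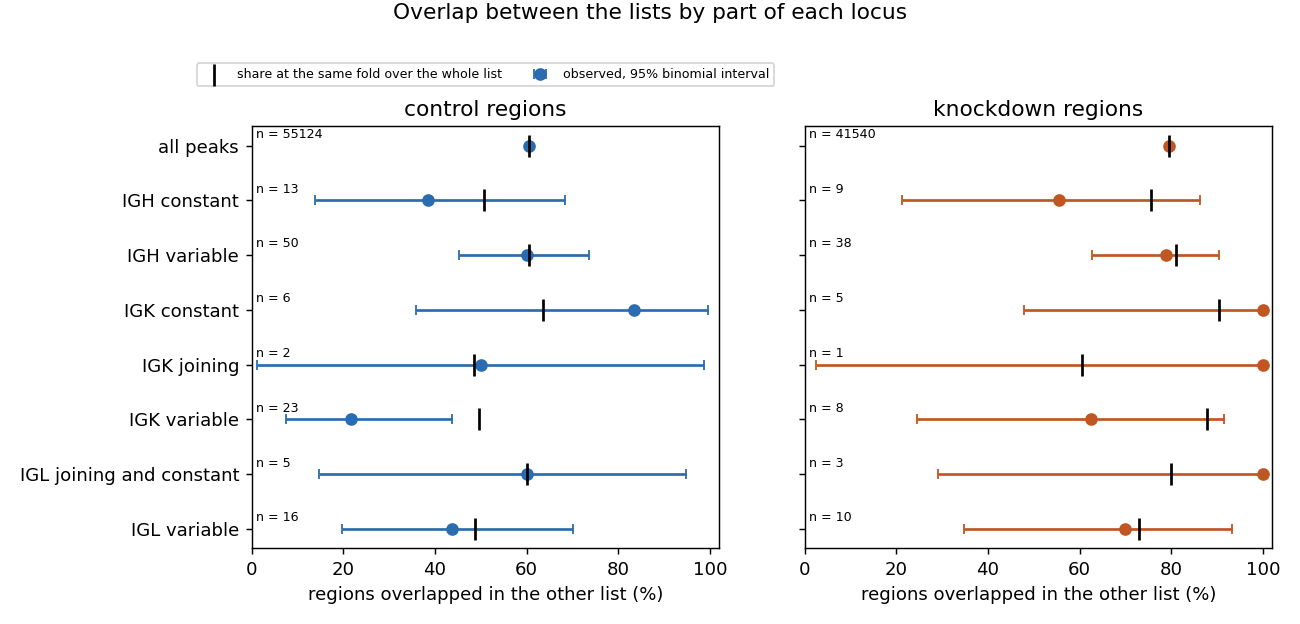
Share of control (left) and knockdown (right) regions that overlap a region of the other list by at least 1 bp, for the whole list and each part of the loci, with exact binomial 95% intervals as bars and the share of regions of the same fold as black ticks. In the IGK variable part 5 of 23 control regions were overlapped, and there the interval (7.46 to 43.7%) lies below the tick at 49.6%.

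The knockdown list held 64.3% as many regions in the loci as the control list (74 against 115, 95% counting interval 47.4 to 86.9%), and 75.4% over all chromosomes, a value inside that interval. The percentages were 74.6% in IGH (50 to 111%), 45.2% in IGK (22.2 to 87.4%) and 61.9% in IGL (28.5 to 130%). At folds of 10 or more, each list held 17 regions in the loci, of which 2 control and 0 knockdown regions had no counterpart. Outside the loci 5.31% of control and 0.47% of knockdown regions of that fold had none. Most regions of 1 list alone were weak, in the loci as elsewhere. A fold below 7 was found for 53 of the 59 control regions without a counterpart (89.8%, and 84.8% outside the loci) and for 14 of the 18 knockdown ones (77.8%, and 89.6% outside).

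**Figure D2:**
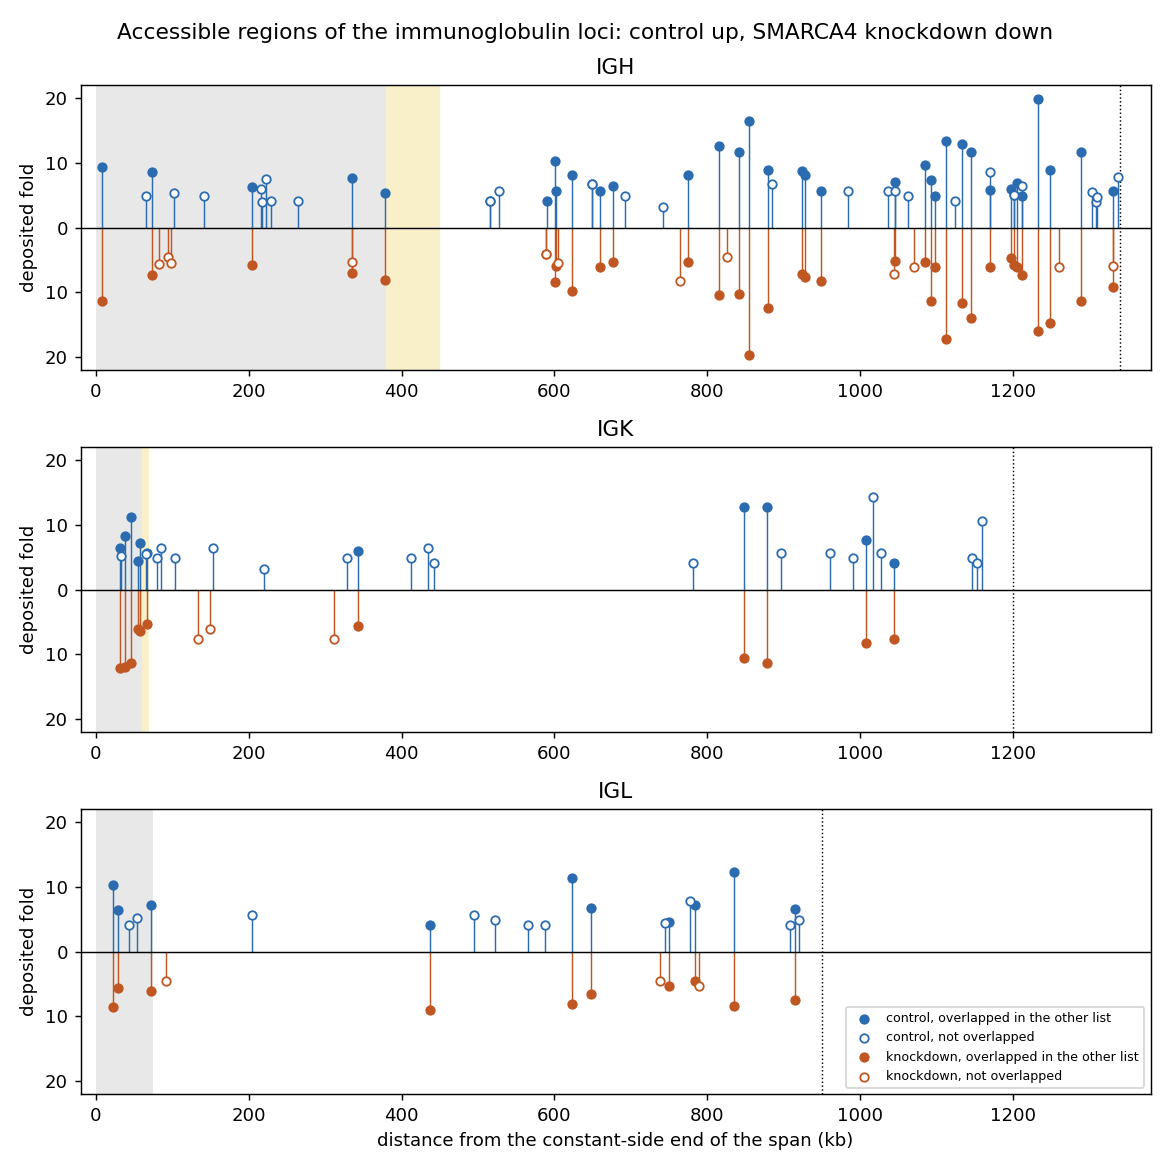
Deposited fold of every accessible region against its distance in kb from the constant-side end of the span, with control regions upward, knockdown regions downward, filled points where the other list overlaps and open points where it does not. Grey marks the constant part (in IGL the joining and constant part), yellow the joining part, and the dotted line the end of the span. In the IGK constant part 5 of 6 control and 5 of 5 knockdown points are filled, while its variable part has 18 open control points.

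The constant part of IGH, from 105.95 to 106.33 Mb, held 13 control and 9 knockdown regions, of which 5 pairs overlapped. This was 38.5% of the control regions (13.9 to 68.4%), against 50.6% by fold. The strongest lay at its outer end, 7.33 kb inside the span, from 105956959 to 105957706 in the control list and from 105957035 to 105957715 in that of the knockdown. Its fold was 9.27 in control cells and 11.3 in knockdown cells, with 29 and 44 reads stacked at the summit. The surrounding 10 kb held 238 and 336 reads, the most around any region of the loci. The span was set by position alone, so whether this region belongs to an immunoglobulin gene or to another gene was not checked. The nearest region outside the span, from 105948334 to 105948577, was 1.42 kb beyond its end and had a control fold of 5.51. The recovered depths, with the lengths to which reads were extended, give 1.34 times as many summit reads in the knockdown library at equal accessibility. Scaled by this, the outer region had a ratio of knockdown to control of 1.13, with a 95% counting interval of 0.692 to 1.87 that holds 1.

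A second pair in the constant part was at 106023666 to 106023791, with folds of 8.57 in control cells and 7.39 in knockdown cells and 12 and 11 reads. The pair at 106154402 to 106154567 had folds of 6.32 and 5.78 with 8 and 9 reads. The pair at 106284311 to 106284986 was 676 bp wide in the control list, with a fold of 7.67 and 12 reads, and the knockdown list had 380 bp there with 7.05 and 11 reads, plus a second region 43 bp beyond the control region's end. The scaled ratios of these pairs were 0.683, 0.838 and 0.683, each with an interval that holds 1. The control region from 106172811 to 106172957, with a fold of 7.42 and 9 reads, had its nearest knockdown region 18.2 kb away. It lay in a run of 5 control regions from 106165449 to 106214750 with folds of 3.91 to 7.42 of which none had a knockdown counterpart, a run named after its values were seen. Outside the loci 27.3% of control regions below a fold of 5 had a counterpart, 54.6% from 5 to 7 and 79.2% from 7 to 10.

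The region nearest to the J segments, from 106328349 to 106328500 in the control list, had the highest ratio of summit reads among the 5 pairs of the IGH constant part. It had 9 reads and a fold of 5.31 in control cells, and 19 reads and a fold of 8.04 in knockdown cells, where it spanned 273 bp against 152 bp. The scaled ratio was 1.57, but its counting interval of 0.678 to 3.95 holds 1. The reads in the surrounding 10 kb also numbered more in the knockdown library, at 167 against 94, or 1.78 times.

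No region of either list lay in the joining and diversity part of IGH, the 70 kb from 106.33 to 106.4 Mb. At the density of all chromosomes this length would hold 1.27 control and 0.958 knockdown regions, so a count of 0 is within counting error of that density. As a 1-sided limit, a count of 0 allows up to 3 regions in this length, or 42.9 per Mb. That limit is below the control density of IGH as a whole (47.0 per Mb) and above its knockdown density (35.1 per Mb). The stretch free of regions in both lists ran on into the variable part, from 106328519 to 106465560, which is 137 kb, and in the knockdown list it reached 211 kb. It is the longest such stretch in IGH in each list. Rearrangement can delete DNA in this stretch, and deletion, reads that cannot be placed and closed chromatin cannot be told apart in a peak list.

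The variable part of IGH, from 106.4 to 107.29 Mb, held the most regions of any part by number, with 50 in the control list and 38 in that of the knockdown. Its density was 56.2 and 42.7 per Mb, below that of the much shorter IGK constant part (100 and 83.3 per Mb), and 3.09 and 3.12 times the density of each whole list. Of the control regions 30 had a counterpart, or 60% (45.2 to 73.6%) against 60.5% by fold, and of the knockdown regions 30, or 78.9% (62.7 to 90.4%) against 81.1%. The outermost stretch held most: in 4 equal stretches from the joining side outward the control list held 10, 9, 12 and 19 regions and the knockdown list 7, 8, 10 and 13. All 9 control and all 11 knockdown regions of the IGH variable part with a fold of 10 or more had a counterpart, as had 94.7% and 99.5% of such regions outside the loci.

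The same 3 places led both lists in the variable part of IGH. The region at 107183262 to 107183418 had the highest control fold of the loci, 19.8, above that of 99.6% of all control regions, with 27 reads, and 15.9 with 21 reads in the knockdown library. The region at 106804968 to 106805291 had a fold of 16.5 with 28 reads in the control and the highest knockdown fold of the loci, 19.6 with 42 reads, above that of 99.7% of all knockdown regions. The third, from 107061921 to 107062204, had 13.3 with 17 reads and 17.2 with 26 reads. Scaled for depth these pairs had ratios of 0.580 (0.312 to 1.06), 1.12 (0.677 to 1.87) and 1.14 (0.595 to 2.24). The first thus lay lower and the others slightly higher in the knockdown library, none beyond counting error. All 3 were picked by their folds in these same lists, which by itself can move such ratios.

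The strongest IGH regions of 1 list alone were less enriched than these. The control region from 107120238 to 107120346, with a fold of 8.60 and 11 reads, lay 94 bp from a knockdown region. That at 107287543 to 107287652, with 7.73 and 10 reads, had a knockdown region at 6.16 kb. In the knockdown list, the region at 106714241 to 106714353 had a fold of 8.32 with 10 reads and its nearest control region at 10.7 kb. The region at 106993681 to 106993852 had 7.14 with 9 reads and a control region at 1.78 kb. Scaled to the control library, the knockdown summits correspond to 7.45 and 6.71 reads.

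The constant end of IGK held a compact group of regions found in both libraries. Its constant part, the 60 kb from 89.1 to 89.16 Mb, held 6 control and 5 knockdown regions, all between 31.4 and 57.9 kb from the outer end, and 5 pairs overlapped. This is 83.3% of the control regions (35.9 to 99.6%) and 100% of the knockdown regions (47.8 to 100%). By fold the shares would be 63.6% and 90.3%, and the differences of 19.7 points (-27.7 to 36.0) and 9.7 points (-42.5 to 9.7) have intervals that include 0. The density of 100 control regions per Mb was 5.5 times that of the whole list.

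From the outer side inward, the first IGK pair, from 89131333 to 89131553, had 9 reads and a fold of 6.43 in control cells and 19 reads and a fold of 12.1 in knockdown cells. The next pair, from 89137764 to 89138143, had 12 reads with 8.26 and 22 reads with 11.9. The pair at 89145393 to 89145736 led the control regions of this part with 17 reads and a fold of 11.2, and had 18 reads and 11.3 in the knockdown library. The pair at 89155156 to 89155249 had 6 and 11 reads, with folds of 4.48 and 6.15. The pair nearest the J segments, from 89157715 to 89157936, had 11 and 12 reads, with 7.24 and 6.40. Every knockdown summit here had more reads than its control counterpart, by 1.06 to 2.11 times where depth alone gives 1.34. After scaling, 3 ratios lay above 1 (1.57, 1.37 and 1.37) and 2 below (0.789 and 0.813), and all 5 intervals hold 1.

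The single unmatched control region of the IGK constant part, from 89132164 to 89132349 with a fold of 5.15 and 7 reads, lay 661 bp from the nearest knockdown region. In the joining part, the 10 kb from 89.16 to 89.17 Mb, the control list held a pair of neighbours, at 89165617 to 89165837 and at 89166414 to 89166591, with folds of 5.5 and 5.62 and 9 reads each. The knockdown list held a counterpart of the second, with a fold of 5.29 and 9 reads. The first was 572 bp from it.

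The variable part of IGK, from 89.17 to 90.3 Mb, held 23 control and 8 knockdown regions. The knockdown number was 34.8% of the control number (13.5 to 80.5%). Of the control regions 5 had a counterpart, or 21.7% (7.46 to 43.7%), where fold gives 49.6%. The difference of -27.8 percentage points had an interval of -42.1 to -5.85. With strength measured by summit reads in place of fold the difference was -20.8 points (-35.1 to 1.14). With reciprocal overlap of 50% it was -17.3 points (-31.6 to 4.69). Both of these intervals reach 0, while strength by fold and width together gave -27.2 points (-41.5 to -5.26). Of the 8 knockdown regions 5 had a counterpart (62.5%, 24.5 to 91.5%), against 87.7% by fold. Of the 23 control regions 17 lay at the lowest background that the caller used, that is in stretches with few reads, and the part of this in the low share was not tested. The IGK variable part is 1 of the 7 filled parts of the loci, it was singled out after the values were seen, and its difference from the other parts was not tested.

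The strongest control region of the IGK variable part was missing from the knockdown list. It lay from 90116937 to 90117129, had a fold of 14.3, above that of 95.7% of all control regions, and 18 reads at its summit, which correspond to 24.2 reads at knockdown depth. The nearest knockdown region was 8.56 kb away. The control region from 90259568 to 90259742, with a fold of 10.6 and 13 reads (17.4 at knockdown depth), had its nearest knockdown region 115 kb away. These are the 2 control regions of the loci with a fold of 10 or more and no counterpart, and over all chromosomes 549 of 10321 control regions of that fold had none. The lowest summit that entered the knockdown list had 4 reads, so a region outside the list is one under the caller's limit and not one shown to be closed.

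Other strong regions of the IGK variable part were in both lists. The region at 89948161 to 89948439 had a fold of 12.8 with 15 reads in control cells and 10.6 with 13 reads in knockdown cells. That at 89977616 to 89977785 had 12.7 with 16 reads and 11.3 with 14 reads. The region at 90108233 to 90108379 had 7.69 with 9 reads and 8.28 with 10 reads, and it lies on the near side of the missing one. Scaled ratios were 0.646, 0.652 and 0.828, and each interval holds 1.

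IGK variable segments are known to lie in a near and a far block, the far one being an inverted copy of much of the near one. Both lists had a long stretch without regions between 89543043 and 89881225 (338 kb), and in the knockdown list it reached 505 kb. Whether hg19 holds sequence all along this stretch was not checked, so it may be one where no read can be placed. On its near side 1 of 10 control regions had a counterpart, a difference of -30.0 percentage points from the share by fold (-39.8 to 4.47), and on its far side 4 of 13, a difference of -26.1 points (-47.8 to 4.54). The share was thus below that by fold on both sides, with intervals that reach 0, and the split was made after the values were seen. On the near side 3 of 4 knockdown regions had no control counterpart, among them those from 89233636 to 89233798 and from 89412078 to 89412211, each with a fold of 7.57 and 9 reads and with control regions 18.9 and 16.9 kb away. All 4 knockdown regions of the far side had a control counterpart. By fold, 80.3% of the near and 95.1% of the far knockdown regions would have one, and 79.4% of all knockdown regions had one. The differences from the shares by fold had intervals of -79.6 to 0.314 points (near) and -55.3 to 4.89 points (far), which include 0.

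In IGL the J and C segments alternate, so the 75 kb from 23.225 to 23.3 Mb were taken as 1 joining and constant part. It held 5 control and 3 knockdown regions, with 3 pairs. This is 60% of the control regions against 60.1% by fold, and 100% of the knockdown regions against 79.9%, a difference whose interval (-50.7 to 20.1 points) includes 0. The strongest, from 23277796 to 23278090, had a fold of 10.2 with 17 reads in control cells and 8.47 with 15 reads in knockdown cells. The pair at 23270903 to 23271200 had 6.49 with 10 reads and 5.67 with 8 reads. The pair at 23227177 to 23227453 had 7.26 with 8 reads and 6.05 with 7 reads. All 3 had fewer reads in the deeper knockdown library, with scaled ratios of 0.596 to 0.658, although every interval holds 1. Over all pairs of the genome 11281 of 34161 had fewer reads in the knockdown library, and 70.9% had a scaled ratio below 1. The control regions without a counterpart, at 23245955 to 23246072 and at 23256259 to 23256352, had folds of 5.15 and 4.03 with 7 and 4 reads. A knockdown region from 23301482 to 23301594, with a fold of 6.81, lay 1.48 kb outside the span.

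The variable part of IGL, from 22.35 to 23.225 Mb, held 16 control and 10 knockdown regions with 7 pairs, or 43.8% of the control regions (19.8 to 70.1%) against 48.7% by fold. The region at 22465411 to 22465600 had a fold of 12.3 with 15 reads in control cells and 8.32 with 10 reads in knockdown cells. That at 22676500 to 22676764 had 11.3 with 14 reads and 8.15 with 11 reads. The knockdown list was led by the region at 22863051 to 22863245, which had 9.08 with 11 reads, and where the control region had 4.03 with 4 reads. Its scaled ratio of 2.05 was the highest of all 56 pairs and still had an interval (0.607 to 8.83) that holds 1. Whether this region belongs to an immunoglobulin segment or to another gene was not checked.

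Regions of 1 list in the IGL variable part were mostly weak. The control region from 22522262 to 22522520 had a fold of 7.86 with 9 reads and a knockdown region at 5.73 kb. Those at 22804938 to 22805045 and at 23096166 to 23096275 had 5.65 with 6 reads each. The knockdown regions without a counterpart had folds of 5.30 (from 22511271 to 22511381) and 4.54 (from 22562411 to 22562499 and from 23208203 to 23208291). From 22863246 to 23096165, which is 233 kb, neither list held a region.

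Over the 56 pairs the knockdown summit had a median 1.0 times the control reads, against 1.12 times over all 34161 pairs of the genome. After scaling for depth the median log2 ratio was -0.42 in the loci (interquartile range -0.62 to 0.16) and -0.25 over all pairs (-0.62 to 0.06). It lay below 0 in 40 of 56 pairs, or 71.4%, and in 70.9% of all pairs. By locus the median was -0.42 in IGH (35 pairs), -0.30 in IGK (11 pairs) and -0.61 in IGL (10 pairs). Single values ran from -1.30 to 1.04, and the counting interval held a ratio of 1 in all 56 pairs. The share of such intervals over all pairs of the genome was not computed, so whether this count is particular to the loci cannot be said. Summits of a pair lay a median 26.5 bp apart (29.0 bp over all pairs), and 6 of 56 lay more than 100 bp apart (4386 of 34161 over all pairs).

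**Figure D3:**
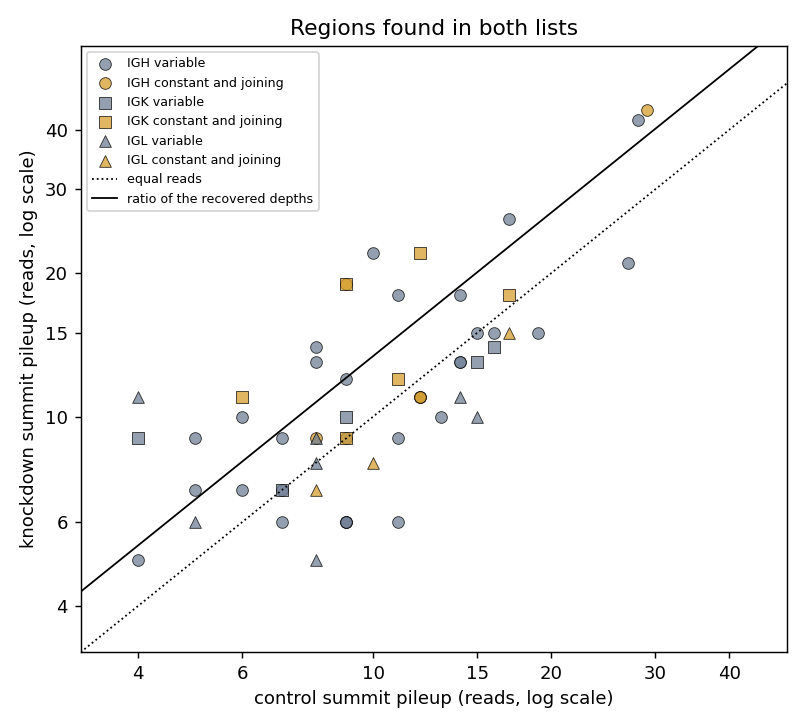
Reads stacked at the summit in the knockdown library against those in the control library for the 56 pairs, both on log scales, with marker shape for the locus and colour for the part. The dotted line marks equal reads and the solid line the 1.34 times that depth gives. Below the solid line lie 40 pairs, and above it lie 3 of the 5 pairs in the IGK constant part.

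Many regions in the variable parts lay in stretches with few reads, while those at the constant end of IGK did not. The caller's background at a peak gives the reads in the surrounding 10 kb, the peak's own included, down to a floor of 25.5 reads in control cells and 36.2 in knockdown cells. In the variable part of IGK 17 of 23 control regions (73.9%) and 6 of 8 knockdown regions (75%) were at that floor, against 20.6% and 14.6% of all regions. In the variable part of IGL it was 8 of 16 and 7 of 10, and in that of IGH 20 of 50 (40%) and 12 of 38 (31.6%). The joining and constant part of IGL was much like that of IGH variable, with 2 of 5 (40%) and 1 of 3 (33.3%). The IGH constant part had 3 of 13 (23.1%) and 0 of 9. None of the regions in the IGK constant and joining parts was at the floor: the constant part had a median of 60.5 reads per 10 kb in control cells and 104 in knockdown cells. Fewer copies of the DNA, reads lost to near-identical segments and fewer insertions all lower this value and cannot be told apart.

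Between the libraries, the reads per 10 kb around pairs above the floor were a median 1.66 times as many in the knockdown library in the IGK constant part (5 pairs) and 1.41 times in the IGH constant part (5 pairs). The other values were 1.06 times in the joining and constant part of IGL (2 pairs), 1.2 times at the pair in the IGK joining part, 1.25 times in the IGK variable part (2 pairs), 1.14 times in the IGL variable part (3 pairs) and 0.977 times in the IGH variable part (17 pairs). These compare with 1.29 times over 28714 pairs of the genome and 1.42 times by depth. With these local reads as the scale, the median log2 ratio at the summits was -0.08 over 35 pairs of the loci and -0.14 over the genome. These values describe 1 library each, and how far they move between repeat libraries was not measured.

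**Figure D4:**
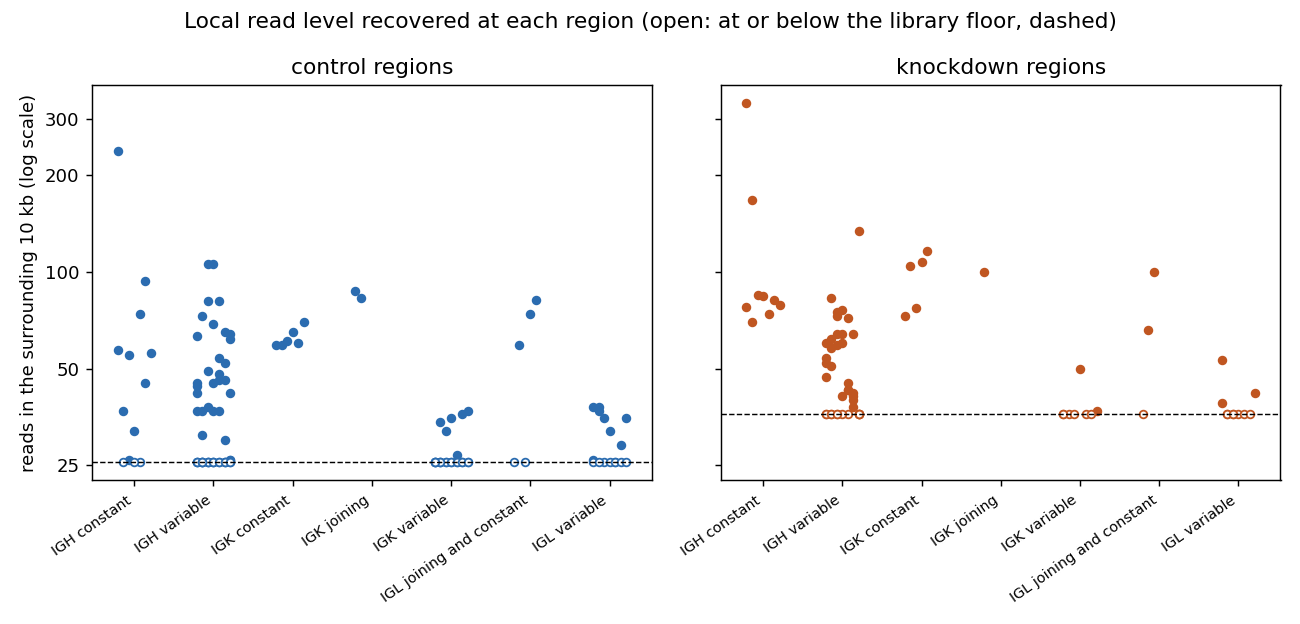
Reads in the 10 kb around each region (log scale), by part of the loci, in the control (left) and knockdown (right) library, with open points at or below the library's floor (dashed line, 25.5 and 36.2 reads). In the IGK variable part 17 of 23 control regions sit on the floor, and in the IGK constant and joining parts none does.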

How the data were processed

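Accessible regions were taken from 2 deposited narrowPeak lists (control and knockdown, 1 library each). Per the submitters' processing notes, bcl2fastq 2.17.1.14, BWA, MACS2 and hg19 were used, with parameters not given in the sources used here. The deposited values are a fold, −log10 p and −log10 q, and a score, each for the summit of 1 peak. The fold is the ratio of summit to background with 1 added to both. Positions were also deposited and are printed here counted from 1. Peaks were called per library, as the separate peak names of each list show. The names hold the terms sort and rmdup, which usually stand for sorted alignments without duplicates. Summit reads and background were solved from fold and p-value with a Poisson tail (SciPy 1.17.1, pandas 2.3.3); recovered values gave back the deposited −log10 p within 2.82e-05 and 4.15e-05. The code was tested on simulated data. The shortest peaks, 94 and 89 bp, were taken as extension lengths, and the lowest background was 0.24 and 0.322 reads. Chromosome Y was left out. Shares by fold average the overlapped share of 13 fold bands. Exact binomial (Clopper-Pearson) intervals at 95% cover counting error only, since amplified reads are not separate molecules and nearby regions are related. Ratios of summit reads carry conditional binomial intervals. Parts of the loci beyond the given IGH boundary are approximate. By rule, in constant and joining parts all regions were named where a list held 8 or fewer, otherwise the 5 of highest fold. In variable parts it was the 3 of highest fold per list, plus the 2 of highest fold without counterpart per locus and list. Ties were all named, and others are marked. The loci, lists and divisions were chosen with earlier results of these data known. Alternatives changed the overlap rule, q limit, span ends, list length, strength measure and scaling.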

Additional observations from a re-analysis of the deposited data

How the results depend on the processing

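No paired analysis was possible because each group has 1 library, and for the same reason no replicate could be left out. Of 53 alternatives, 27 for the loci as a whole and 25 for single parts gave a value inside the interval or spread of the value in the report, and none turned a direction whose interval left out 0. The exception was the share of control regions with a counterpart, 48.7%, which became 60.7% (51 of 84 regions) with lists of equal length, where the whole list rose to 71.7%; shorter control lists drop weak regions by construction. Under the other overlap rules, q limits and span ends it ranged from 42.6 to 54.7%. The control share in the IGK variable part, 21.7%, ranged from 21.7 to 33.3% under 7 alternatives chosen after seeing the data, where the whole list ranged from 49.0 to 76.2%. The highest came with the control list alone limited to q-values up to 1e-05, and with lists of equal length, each with 4 of 12 regions overlapped (interval 9.92 to 65.1%). The difference of knockdown regions from the share by fold, -4.63 points, was 0.612 with reciprocal overlap of 50%, and the interval of the former includes 0. Most summits held few reads (a median of 7 for control and 9 for knockdown regions), which limits what single regions can show.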
